A study of Homo sapiens with 9 samples.

Results

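Fibronectin, encoded by FN1, and 9 integrin subunits (ITGA5, ITGAV, ITGA2, ITGA11, ITGB1, ITGB3, ITGB5, ITGB6 and ITGB8) were taken by symbol from a table of reads per gene in differentiating human embryonic stem cells. They are 10 of 27730 gene symbols in that table, and each was found. The cells were HUES9, a single human embryonic stem cell line, grown on a feeder layer of mouse embryonic fibroblasts treated with mitomycin C. Embryoid bodies were formed by centrifugation and later plated on Matrigel, a basement membrane extract. The groups were cells at day 13 with 10 µM AA147, cells at day 13 with 10 µM RP22, and cells at day 1 with no agent. Each group had 3 libraries from independent experiments. The labels name AA147 as an activator of ATF6, an endoplasmic reticulum transcription factor of the unfolded protein response, and RP22 as its inactive analogue. Solvent controls were not analysed here, so each comparison with day 1 combines time, differentiation and compound, which cannot be told apart. The question put to AA147 and RP22 by the study's title is whether ATF6 acts on differentiation towards mesoderm.

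Library totals ran from 9223027 to 10118258 reads, and scaling factors (TMM) were 0.786 to 0.82 with AA147, 1.11 to 1.18 with RP22 and 1.08 at day 1. Markers of pluripotent stem cells (5 of 5 with reads at day 1) summed to 30.2 to 43.5 CPM (reads scaled to library size) with AA147, 262 to 501 CPM with RP22 and 5050 to 5470 CPM at day 1. RP22 replicate 1 stood apart from the other RP22 libraries, with the highest FN1, ITGA5, ITGA11 and ITGB1 of its group. Without it the log2 fold change between AA147 and RP22 was 2.36 for FN1, 1.54 for ITGA5, 3.19 for ITGA11 and 1.86 for ITGB1, and each remained called higher. Day 1 replicate 1, which enters both day 1 comparisons, also differed from its group in some genes. It had more reads of ITGB6 (22 against 0 and 0), ITGB8 (237 against 76 and 88) and COL3A1 (107 against 4 and 2). It had fewer reads of ITGA5 (134 against 176 and 169). In these bulk samples fewer cells of a type and less RNA per cell cannot be told apart. Reads from the mouse feeder cells were not separated here.

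Fibronectin is a secreted glycoprotein that cells assemble into fibrils, and it is a main component of the early embryonic matrix. Integrins are receptors made of 1 α and 1 β subunit that link such fibrils to the actin cytoskeleton. The pair α5β1 is the main receptor in fibril assembly. The αv subunit pairs with β1, β3, β5, β6 or β8 and binds fibronectin, vitronectin and, above all for β6 and β8, the latent form of TGF-β, whose release they drive. The subunits α2 and α11 pair with β1 as collagen receptors. ATF6, once cut in the Golgi, enters the nucleus and binds elements in the promoters of chaperone genes.

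RefSeq (GRCh38.p14) gave promoters for 9 of the 10 genes, all but ITGB3, with 13 starts in all. The 250 bases before each start, a window, were searched on both strands. The FN1 and ITGA11 sequences were chosen for matches to elements that ATF6 or its wider family binds. Each was the only match to its element among these genes. In FN1 the capitals mark TGACGTCA, the cAMP response element (CRE) that the ATF and CREB family binds. It lay 183 to 176 bases before the start. In ITGA11 they mark TGACGTGG, an unfolded protein response element (UPRE) that XBP1 and ATF6 bind, 192 to 185 bases before the start. Both sequences are on the minus strand, from 250 to 111 bases before the start, at chr2:215436179-215436318 for FN1 and chr15:68432274-68432413 for ITGA11.
FN1: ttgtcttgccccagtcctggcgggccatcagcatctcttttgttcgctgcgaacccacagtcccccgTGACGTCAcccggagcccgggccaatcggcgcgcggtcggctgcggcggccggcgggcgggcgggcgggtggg
ITGA11: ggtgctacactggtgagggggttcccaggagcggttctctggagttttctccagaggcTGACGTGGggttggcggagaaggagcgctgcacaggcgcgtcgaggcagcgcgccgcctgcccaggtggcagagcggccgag
The CRE stood in 1.65% and the UPRE in 0.612% of 35116 RefSeq promoter windows of the same length, and the 2 elements share their first 6 letters. The ER stress element, CCAAT and CCACG spaced by 9 bases, was in 0.074% of windows and the AP-1 element TGANTCA in 6.57%. None of the 13 windows held either. The TEAD element GGAATG was in 2 of the 13 windows, 1 of ITGA5 and 1 of ITGB1, and in 11.9% of all windows. The GC box GGGCGG was in 7 of the 13 windows and in 42.6% of all. TATAAA was in 1 of the 13, a window of ITGB1 that is not shown, and in 10.7% of all. A match is a description of letters, and binding was not measured.

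FN1 transcripts were far more abundant with AA147 than with RP22 after 13 days, and so were the αv, β6, α5, β1, β3, α2 and α11 subunits, with folds from 2.53 to 7.6. The β5 subunit was 1.39-fold higher. Only ITGB8 had groups that overlapped. In the edgeR fit 9 of the 10 genes passed the test as higher and 0 as lower, with a median log2 fold change of 2.09 against -0.03 over all genes. The background was broad: of 14293 genes tested, 29.8% were called higher, 32.2% were called lower, and 70.5% had groups that did not overlap. All 10 genes passed the filter on low counts. Adjusted p-values in all comparisons are from edgeR's quasi-likelihood test with Benjamini-Hochberg adjustment over all genes tested.

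FN1 had 23215, 24646 and 21454 CPM in the AA147 libraries, against 5195, 4298 and 4336 CPM in the RP22 libraries. Every AA147 library was above every RP22 library. Mean levels were 23105 ± 1599 CPM with AA147 and 4609.6 ± 507 CPM with RP22 (SD, n = 3 each). The log2 fold change was 2.25 ± 0.123 (SE; 95% interval 1.96 to 2.53), a 4.74-fold difference (edgeR adjusted p = 8.4e-06). It lay at percentile 98.6 of all genes tested.

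ITGAV, the α subunit shared by the receptors that activate TGF-β, had 2615, 2749.6 and 2576 CPM with AA147, against 535, 533 and 522 CPM with RP22. The spread within each group was small beside the gap between them. On the log2 scale the difference was 2.24 ± 0.0756 (SE), a 4.72-fold difference (edgeR adjusted p = 1.7e-06). ITGA5, the α subunit of the classical fibronectin receptor, had 367, 316 and 303 CPM with AA147, against 154, 108 and 108 CPM with RP22. Its log2 fold change was 1.34 ± 0.157 (SE), or 2.53-fold (edgeR adjusted p = 0.00032). The 95% interval of ITGA5, 0.97 to 1.71, lay below that of ITGAV, 2.07 to 2.42.

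The collagen-binding α subunits also rose. ITGA2 had 243, 375 and 282 CPM with AA147, against 83.1, 70.6 and 68.6 CPM with RP22, with a log2 fold change of 1.94 ± 0.161 (SE; edgeR adjusted p = 7.1e-05). ITGA11, a receptor subunit typical of fibroblasts, had 462, 354 and 299.5 CPM with AA147, against 74.6, 39.1 and 38.7 CPM with RP22. Its groups were apart, although replicate 1 was the highest in both. This gave a log2 fold change of 2.80 ± 0.331 (SE; edgeR adjusted p = 0.00082).

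Among the β subunits, ITGB6 had 2537, 3695 and 3584 CPM with AA147, against 358, 433 and 429.6 CPM with RP22. The β6 subunit pairs only with αv and is known from epithelia. Its groups were far apart, and replicate 1 was the lowest in both. The log2 fold change was 2.93 ± 0.161 (SE; 95% interval 2.55 to 3.3), a 7.6-fold difference (edgeR adjusted p = 8.7e-06), at percentile 99.6 of all genes tested. ITGB3, the partner of αv best known from platelets and osteoclasts, was much lower in level, with 34.5, 39.6 and 49.8 CPM with AA147, against 6.45, 5.46 and 4.60 CPM with RP22. Its log2 fold change, 2.83 ± 0.178 (SE; edgeR adjusted p = 1.4e-05), was close to that of ITGB6, with a 95% interval of 2.42 to 3.24.

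ITGB1, the partner of α5, α2 and α11, had 4118, 4477 and 3855 CPM with AA147, against 1532, 1082 and 1099 CPM with RP22. On the log2 scale it differed by 1.67 ± 0.149 (SE), a 3.17-fold difference (edgeR adjusted p = 6.5e-05). ITGB5, a partner of αv that binds vitronectin, had 245, 254 and 313 CPM with AA147, against 209.9, 169 and 177 CPM with RP22. Its groups did not overlap but lay close together. The log2 fold change was 0.47 ± 0.117 (SE; 95% interval 0.2 to 0.74; edgeR adjusted p = 0.009), and with library totals alone as the scale it was 0.02 (edgeR adjusted p = 0.89) and the call was lost.

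ITGB8, the other αv partner that activates TGF-β, had 36.5, 33.5 and 37.2 CPM with AA147, against 35.5, 29.7 and 35.6 CPM with RP22. The groups overlapped. The log2 fold change was 0.01 ± 0.103 (SE), and its 95% interval of -0.23 to 0.25 bounds the size of any difference on this scale. With library totals alone, where the median gene moved to -0.49, ITGB8 was at -0.45 and was called lower (edgeR adjusted p = 0.0049). On either scale it lay close to the median gene.

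**Figure D1:**
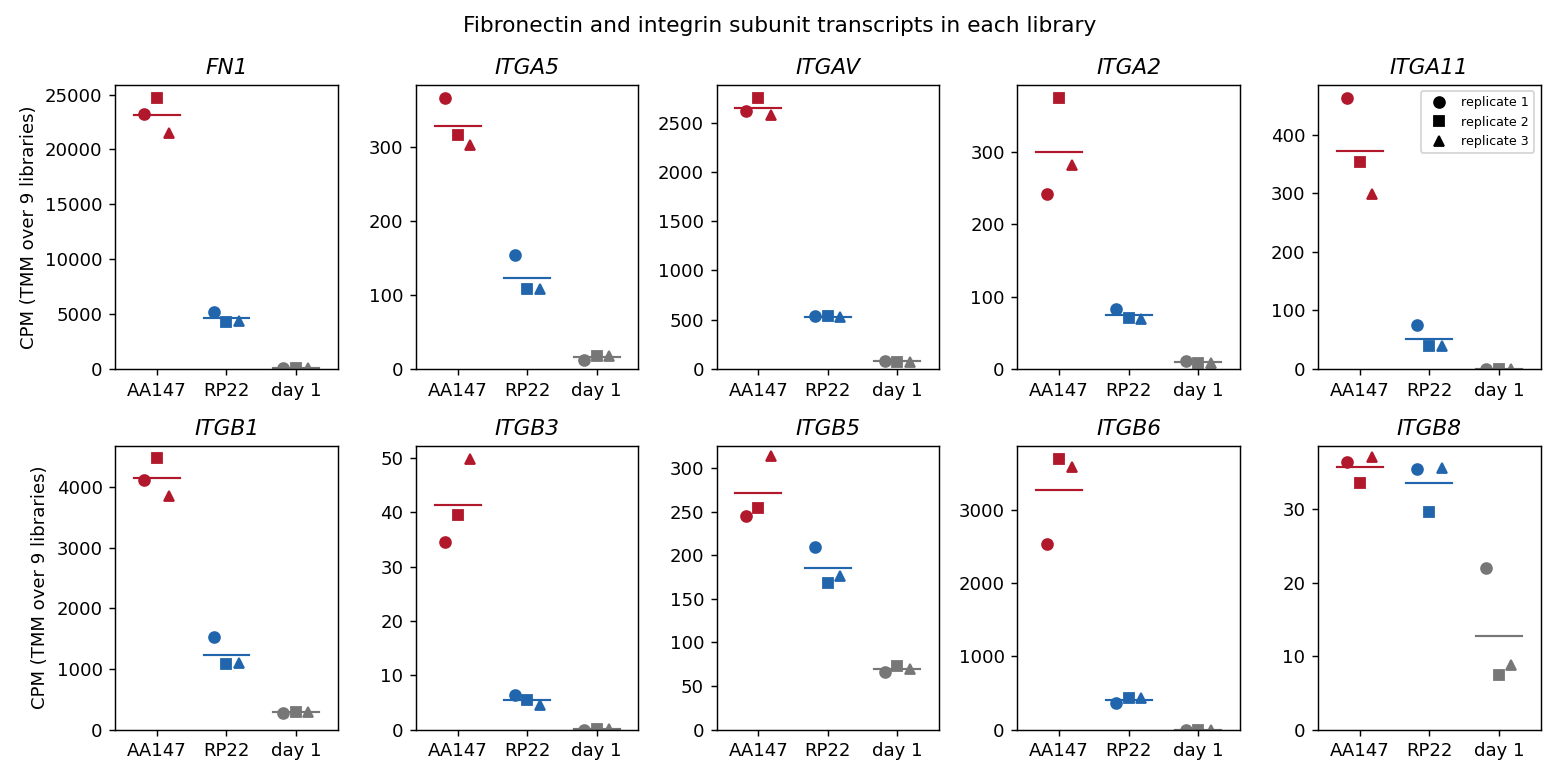
CPM of each of the 10 genes in every library, on a linear axis that starts at 0 and differs between genes, with AA147 at day 13 left of RP22 at day 13 and day 1. Points are libraries, their shapes are replicate numbers and horizontal bars are means, and only ITGB8 has AA147 and RP22 libraries that overlap.

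**Figure D2:**
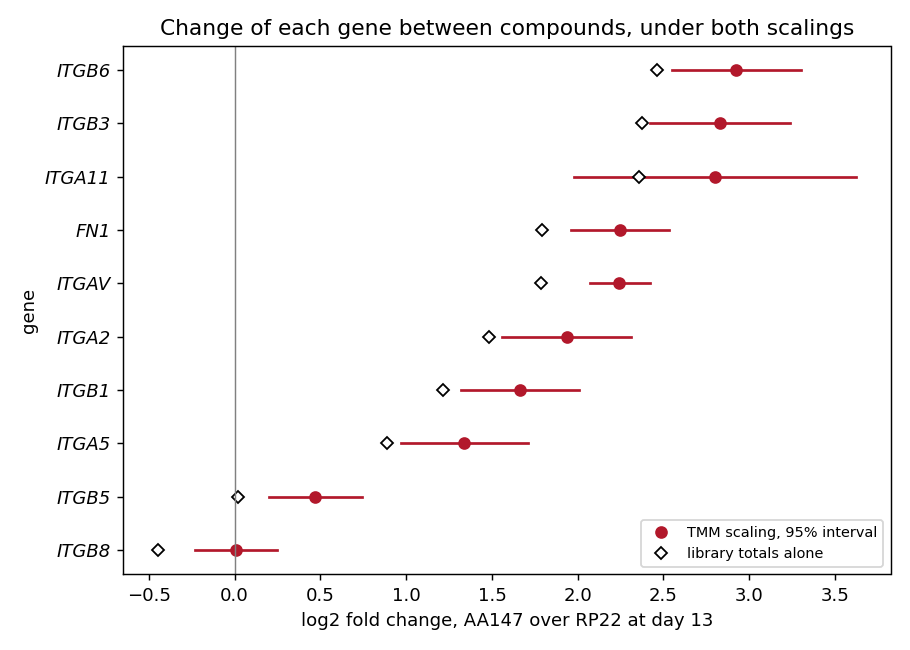
Log2 fold change of each gene, AA147 over RP22 at day 13, with TMM scaling (filled circles, with 95% intervals from the edgeR fit) and with library totals alone (open diamonds). With TMM the values run from 0.01 for ITGB8 to 2.93 for ITGB6, and with library totals alone ITGB5 is at 0.02 and ITGB8 at -0.45.

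Levels of different genes can be set side by side only per length, for which the deposited RPKM, which corrects a count for gene length and depth, was used. With AA147 the order of mean RPKM was FN1 (3745), ITGB1 (875), ITGB6 (474), ITGAV (272), ITGA5 (61.8), ITGB5 (56.9), ITGA11 (37.6), ITGA2 (30.4), ITGB3 (6.72) and ITGB8 (3.26). Neighbours whose libraries overlapped were ITGA5 with ITGB5 and ITGA11 with ITGA2. With RP22 the order began FN1 (1043), ITGB1 (376), ITGB6 (93.4) and ITGAV (78.9), and ITGB5 (54.7) stood above ITGA5 (33.3). ITGB8 was the last with AA147, and with RP22, at 4.42, it stood above ITGB3, which had at most 1.46. At day 1 ITGB1 (81.8) was the highest and ITGB5 (20.3) the next, above ITGAV (11.6) and FN1 (7.60).

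The length by which the authors divided, read back from each count and its RPKM, was not the same in every library. For FN1 it was 4.79 to 5.08 kb with AA147, 5.02 to 5.14 kb with RP22 and 5.54 to 7.78 kb at day 1. At one length per gene the day 1 FN1 values would be 12.6, 9.88 and 8.03 RPKM. For ITGB6 it was about 5.5 kb in the AA147 libraries and in RP22 replicates 2 and 3, and 4.15 kb in RP22 replicate 1. In day 1 replicate 1, with 22 reads, the ITGB6 length was 4.17 kb. At one length per gene ITGB6 would be at 72.3 RPKM in RP22 replicate 1, so that it overlaps ITGAV with RP22. The edgeR tests used counts and did not use these lengths.

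Of the summed RPKM of the 5 β subunits that pair with αv, ITGB6 took 28.4, 34.8 and 36.9% with AA147, against 15.6, 19.1 and 18.7% with RP22. The mean share was 33.4 ± 4.46% with AA147, 17.8 ± 1.87% with RP22 and 0.174 ± 0.302% at day 1 (SD, n = 3 each). ITGB1 remained the largest of the 5, with 61.9 ± 4.71% with AA147, 70.8 ± 2.37% with RP22 and 78.7 ± 0.834% at day 1. ITGB5 took 4.03 ± 0.590% with AA147, 10.4 ± 0.460% with RP22 and 19.5 ± 0.450% at day 1. ITGB8 took 0.232 ± 0.0304% with AA147, 0.842 ± 0.119% with RP22 and 1.52 ± 1.00% at day 1. ITGB3 stayed under 1%, at 0.476 ± 0.0866% with AA147, 0.245 ± 0.0239% with RP22 and 0.0205 ± 0.0201% at day 1. The AA147 and RP22 libraries did not overlap for any of the 5 shares. The 5 shares are parts of the same whole, so a higher share of ITGB6 lowers the rest and they are not separate results. ITGB5 and ITGB8 took smaller shares with AA147 although their own log2 fold changes were 0.47 and 0.01. Each exact two-sided permutation test gave p = 0.1 (Benjamini-Hochberg adjusted 0.1 over the 5), the smallest that 3 against 3 libraries allow, so none can pass 0.05. With one length per gene in place of the deposited RPKM, the ITGB6 share was 16.7 percentage points higher with AA147 than with RP22, against 15.6 points as deposited.

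**Figure D3:**
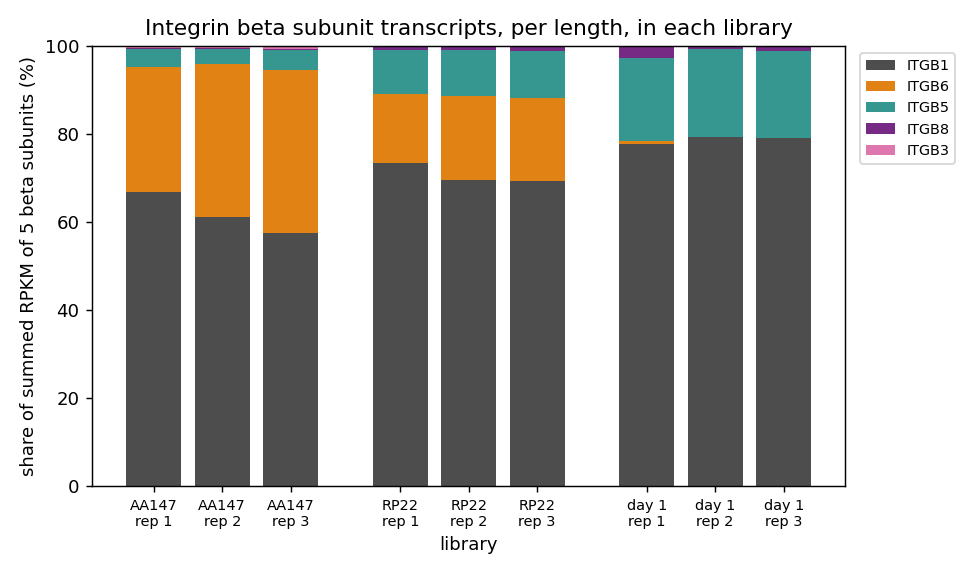
Share of each β subunit in the summed RPKM of ITGB1, ITGB3, ITGB5, ITGB6 and ITGB8, in percent, stacked in 1 bar for each library, with AA147 left of RP22 and day 1. The ITGB6 share is 28.4 to 36.9% with AA147 and 15.6 to 19.1% with RP22.

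Within a library, ITGB6 had 1.37, 1.9 and 1.97 times the RPKM of ITGAV with AA147, and 1.25, 1.14 and 1.16 times with RP22. With one length per gene RP22 replicate 1 was at 0.946 times. At day 1 the ratio was 0.0411 in replicate 1, and ITGB6 had 0 reads in the other two. ITGB6 exceeded ITGB8 by 111 to 176 times with AA147 and by 19.2 to 23.2 times with RP22. FN1 had 13.6, 14.2 and 13.5 times the RPKM of ITGAV with AA147 and 15, 12.2 and 12.5 times with RP22, so the groups overlapped in this ratio, against 0.508 to 0.798 times at day 1. With one length per gene the day 1 ratios were 1.07, 0.942 and 0.77. ITGB1 had 3.07 to 3.34 times the RPKM of ITGAV with AA147 and 4.16 to 5.87 times with RP22.

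At day 13 with AA147, all 10 genes were higher than at day 1 in the edgeR fit, with a median log2 fold change of 5.04 against -0.04 over all genes. In this comparison 38.7% of 13761 genes were called higher, 40.4% were called lower, and 82.3% had groups that did not overlap. At day 13 with RP22, all 10 were higher as well, with a median of 2.98 against 0.02, where 36.6% of 14558 genes were called higher, 35.2% were called lower and 76.9% did not overlap. The 2 comparisons share the day 1 libraries. ITGA11, ITGB3 and ITGB6 passed the count filter only through the day 13 libraries, so that they had to differ, and the counts over the 10 genes are a description.

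FN1 had 60.0, 46.8 and 38.1 CPM at day 1. Against these, its log2 fold change was 8.90 ± 0.206 (SE; 478-fold, edgeR adjusted p = 1.3e-09) with AA147 and 6.57 ± 0.205 (SE; 95.2-fold, adjusted p = 5e-07) with RP22. FN1 had the largest fitted change with either compound among the 7 genes with more than 22 reads at day 1. ITGAV had 84.7, 75.1 and 74.8 CPM at day 1, and its log2 fold change was 5.08 ± 0.0948 (SE) with AA147 and 2.76 ± 0.0798 (SE) with RP22. ITGA5 had 12.5, 17.1 and 16.8 CPM at day 1, and its log2 fold change was 4.41 ± 0.14 (SE) with AA147 and 2.99 ± 0.191 (SE) with RP22. ITGA2 had 11.4, 8.75 and 7.96 CPM at day 1, and its log2 fold change was 4.99 ± 0.206 (SE) with AA147 and 2.97 ± 0.152 (SE) with RP22. The 3 α subunits thus differed by 2.76 to 2.99 with RP22 and by 4.41 to 5.08 with AA147.

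ITGB1 had 276, 296 and 286 CPM at day 1. Its log2 fold change was 3.86 ± 0.0934 (SE) with AA147 and 2.11 ± 0.141 (SE) with RP22. ITGB5 had 65.7, 73.3 and 69.1 CPM at day 1, and its log2 fold change was 1.96 ± 0.105 (SE) with AA147 and 1.41 ± 0.101 (SE) with RP22. ITGB8 had 22.0, 7.39 and 8.76 CPM at day 1, with replicate 1 above the others. Its log2 fold change was 1.48 ± 0.396 (SE; edgeR adjusted p = 0.012) with AA147, and 2.14 without day 1 replicate 1. With RP22 it was 1.39 ± 0.409 (SE; adjusted p = 0.021). That call was lost without RP22 replicate 1 (0.059), RP22 replicate 3 (0.057) or day 1 replicate 3 (0.066), and the value was 2.05 without day 1 replicate 1.

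ITGA11, ITGB3 and ITGB6 had almost no reads at day 1, so their folds are set by a few reads. ITGA11 had 1, 0 and 0 reads at day 1, against 3523, 2567 and 2377 reads with AA147 and 798, 429 and 463 reads with RP22. The ratio to day 1 was 11500 with AA147 (95% counting interval 2070 to 456000) and 1560 with RP22 (280 to 61700). ITGB3 had 0, 2 and 1 reads at day 1. Its ratio was 429 with AA147 (146 to 2090) and 56.7 with RP22 (19.1 to 277). These intervals cover counting error only.

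ITGB6 had 22, 0 and 0 reads at day 1, all in replicate 1. Its log2 fold change was 12.15 ± 0.65 (SE) with AA147 and 9.15 ± 0.678 (SE) with RP22, given as a description. Without day 1 replicate 1, ITGB6 was at least 22200-fold higher with AA147 and at least 2760-fold higher with RP22, with a floor of 3 reads over the remaining day 1 libraries. These bounds leave out its only day 1 reads and do not hold for the full day 1 group. With all day 1 libraries the fitted folds were 4540 with AA147 and 567 with RP22. ITGA11 on the same basis was at least 2520-fold higher with AA147 and at least 340-fold higher with RP22.

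The proteins that act with these receptors were read from lists chosen with earlier results of these data known. Ligands of αv other than fibronectin were mostly higher with AA147 than with RP22: 12 of 15 passed as higher and 0 as lower, with a median log2 fold change of 2.3. TGFBI, a matrix protein induced by TGF-β, differed by 3.83 ± 0.199 (SE), the matricellular protein TNC by 3.30 ± 0.193, the fibrillin FBN1 by 2.98 ± 0.154 and THBS1, which binds latent TGF-β, by 2.95 ± 0.155. VTN, POSTN and NPNT did not pass, and VTN was called lower, at -2.55, without replicate 1 of both groups. Of the collagen chains 6 of 7 were higher and 0 lower, with a median of 1.97. COL4A1 differed by 2.72 ± 0.112 and COL4A2 by 2.52 ± 0.107, while COL3A1 did not pass (edgeR adjusted p = 0.091). COL1A1 differed by 1.97 ± 0.46 (edgeR adjusted p = 0.012), and by 2.63 without RP22 replicate 1.

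Of the 12 fibronectin matrix partners 10 were higher and 1 lower with AA147, with a median of 1.88. TGM2, a transglutaminase that cross-links fibronectin, averaged 2708 CPM with AA147 and 375 CPM with RP22, a log2 fold change of 2.77 ± 0.128 (SE). IGFBP3 differed by 2.61 ± 0.153 and the urokinase receptor PLAUR by 2.16 ± 0.131. The 1 partner lower with AA147 than with RP22 was the fibulin FBLN2, with a log2 fold change of -1.40 ± 0.296 (SE). It averaged 22.6 CPM with AA147, 56.6 CPM with RP22 and 8.65 CPM at day 1.

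The integrin activators and adaptors differed by less, with 13 of 14 tested higher, 0 lower and a median of 1.16. LIMS2 differed by 2.20 ± 0.194 (SE), the kindlin FERMT1 by 1.89 ± 0.0848, zyxin (ZYX) by 1.68 ± 0.0779 and LIMS1 by 1.51 ± 0.114. PARVB did not pass. With library totals alone 1 of these genes was called lower.

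The other integrin α subunits gave a mixed count. Of 9 tested, 1 was higher and 4 were lower with AA147, with a median of 0.09. ITGA3, a laminin receptor subunit, averaged 471 CPM with AA147 and 109 CPM with RP22, a log2 fold change of 2.03 ± 0.15 (SE; edgeR adjusted p = 3.8e-05). ITGA4, the α subunit of a second fibronectin receptor that binds an alternatively spliced region, averaged 1.09 CPM with AA147 and 63.5 CPM with RP22, a log2 fold change of -5.91 ± 0.812 (SE; edgeR adjusted p = 0.0019). In the RP22 libraries ITGA4 had 113, 38.5 and 38.7 CPM, and the log2 fold change was -5.18 without RP22 replicate 1 and -6.79 without AA147 replicate 1. ITGA8, whose product with β1 binds fibronectin and nephronectin, had 55.8, 14.2 and 14.5 CPM with RP22. Its log2 fold change was -3.87 ± 0.89 (SE; edgeR adjusted p = 0.013). It was -2.89 without RP22 replicate 1 and -4.80 without AA147 replicate 1, and the call was lost without AA147 replicate 3 (adjusted p = 0.054). The laminin receptor subunit ITGA7 averaged 5.20 CPM with AA147 and 51.5 CPM with RP22, a log2 fold change of -3.38 ± 0.338 (SE). ITGA2B was called lower too, at a mean of 0.130 CPM with AA147 and 1.92 CPM with RP22. Without RP22 replicate 1, the α subunits called higher were 4. The only other β subunit tested, ITGB4, did not pass.

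Against day 1 the same lists were described in the same way. With AA147, 13 of 14 αv ligands tested, 7 of 7 collagens, 12 of 12 partners and 13 of 15 activators and adaptors were higher. The ligand MFGE8 was the 1 called lower. With RP22, 12 of 15 ligands, 7 of 7 collagens, 12 of 12 partners and 8 of 15 activators and adaptors were higher. Lower with RP22 were MFGE8 and 3 activators and adaptors, FERMT2, VCL and ZYX. The ZYX call was lost without RP22 replicate 1 or 3 or day 1 replicate 2 or 3 (edgeR adjusted p = 0.053 to 0.067). The MFGE8 call with AA147 was lost without AA147 replicate 2 or 3 or day 1 replicate 1 or 3. Of the other α subunits 3 of 8 were higher and 3 lower with AA147, and 5 of 9 were higher and 1 lower with RP22. The median log2 fold change of the activators and adaptors was 1.14 with AA147 and 0.35 with RP22.

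**Figure D4:**
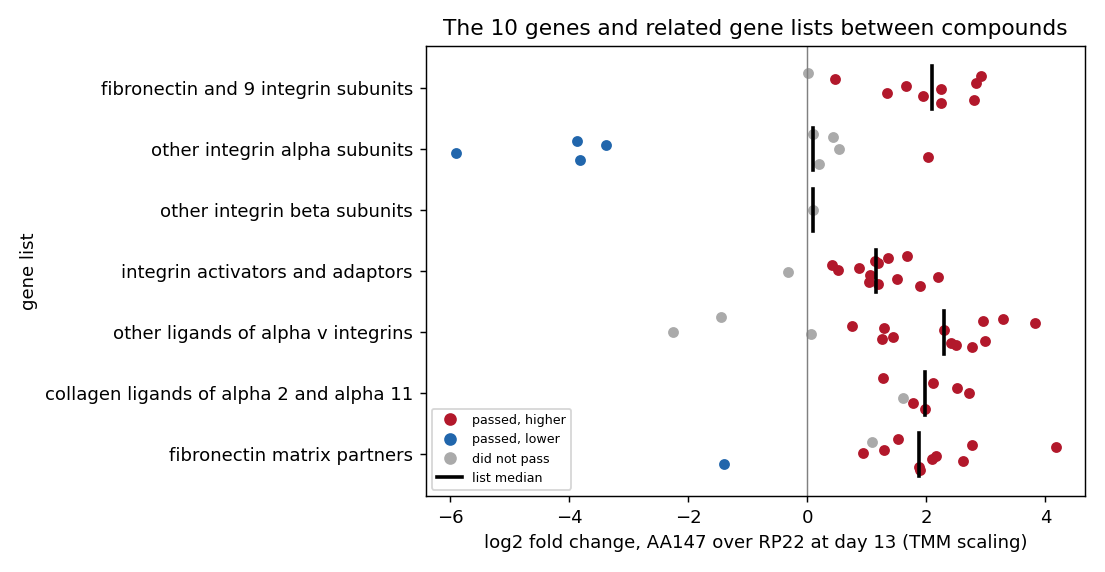
Log2 fold change between AA147 and RP22 of every tested gene in the 10 genes described here and in each list of interacting genes, with list medians as black bars and colours for genes that passed the test as higher (red), as lower (blue) or not (grey). The median is 2.09 for the 10 genes, 2.3 for the αv ligands and 0.09 for the other α subunits.

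Markers of several cell types moved with the compounds, and their part in these results was not tested. Mesenchyme and fibroblast markers (7 of 7 with reads) summed to 32700 to 42400 CPM with AA147, 6280 to 20400 CPM with RP22 and 329 to 414 CPM at day 1, and the highest RP22 sum was that of replicate 1. COL1A1, COL1A2 and COL3A1 made up most of the sum. Between AA147 and RP22, 3 of the 7 passed as higher (COL1A1, COL1A2 and PDGFRB) and 0 as lower. COL3A1, LUM, DCN and THY1 did not pass, with log2 fold changes of 1.61, 0.87, -1.09 and -0.45. Smooth muscle markers (4 of 4 with reads) summed to 3070 to 3480 CPM with AA147, 348 to 456 CPM with RP22 and 93.5 to 128 CPM at day 1. TAGLN and ACTA2 made up most of the AA147 sum. Between AA147 and RP22, 3 of the 4 passed as higher. MYH11 passed in no comparison, with means of 2.92 CPM with AA147, 1.94 CPM with RP22 and 2.33 CPM at day 1. CNN1 did not pass between RP22 and day 1. Epithelial markers (6 of 6 with reads) summed to 7730 to 7990 CPM with AA147, 3010 to 3170 CPM with RP22 and 1830 to 2010 CPM at day 1. Between AA147 and RP22, 6 of the 6 passed as higher. With RP22 against day 1, KRT8, KRT18 and KRT19 were higher, EPCAM and CLDN6 were lower, and CDH1 did not pass. With AA147 against day 1, 5 were higher and EPCAM did not pass. Trophoblast markers (4 of 4) summed to 1530 to 1740 CPM with AA147, 597 to 698 CPM with RP22 and 7.46 to 8.74 CPM at day 1. Between AA147 and RP22, 2 of the 4 were higher and 2 lower. KRT7, which made up most of the sum, averaged 1519 CPM with AA147 and 485 CPM with RP22. CGB5 averaged 3.80 CPM with AA147 and 34.2 CPM with RP22, and CYP19A1 5.42 CPM with AA147 and 39.7 CPM with RP22. Neural markers (5 of 5) summed to 6.17 to 8 CPM with AA147, 513 to 666 CPM with RP22 and 13.3 to 36.4 CPM at day 1. Neural crest markers summed to 26.3 to 44.5 CPM with AA147, with FOXD3 at 0, and to 122 to 209 CPM with RP22 and 9.95 to 23.9 CPM at day 1. TFAP2B made up nearly all of the AA147 sum, at a mean of 35.8 CPM. SOX10 averaged 0.04 CPM with AA147 and 3.37 CPM at day 1. With AA147 against day 1, TFAP2B was called higher, and SOX10 and FOXD3 were called lower. Endothelial markers summed to 4.55 to 16.4 CPM with AA147, with PECAM1 at 0, to 73.8 to 143 CPM with RP22 and to 30.8 to 51.8 CPM at day 1. KDR made up most of these sums, with means of 8.25 CPM with AA147, 87.5 CPM with RP22 and 44.5 CPM at day 1. CDH5 averaged 1.03 CPM with AA147, 12.9 CPM with RP22 and 0.07 CPM at day 1, where PECAM1 was at 0. Blood markers were at or near 0 in all groups.

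The 10 genes did not share one profile. By the root mean square difference of centred log2 CPM over the 9 libraries, where 0 is the same profile, the closest pairs were ITGAV with ITGA2 (0.213), ITGA5 with ITGB1 (0.383), ITGA5 with ITGA2 (0.417) and ITGA5 with ITGAV (0.442). ITGB5 with ITGB8 (0.478) came next. FN1 was closest to ITGA11 among them (0.744), on a scale where a prior count of 2 was added before the log. ITGA11 had 1, 0 and 0 reads at day 1, where this prior largely sets its value. Against day 1, fitted log2 fold changes with AA147 and RP22 were 8.90 and 6.57 for FN1, and 12.98 and 10.18 for ITGA11. For ITGB3 they were 8.55 and 5.67, nearer to FN1. Among 12161 genes, those nearest to FN1 were LRRN4 (0.267), MYL7 (0.286), KRT17 (0.322), TIMP3 (0.336) and COL5A1 (0.364). Nearest to ITGAV were the lysyl oxidase LOXL2 (0.169) and FRMD6 (0.178), to ITGA5 the GTPase RHOC (0.133) and S100A11 (0.16), and to ITGB1 RAB31 (0.118) and P4HA2 (0.132). ITGB3 was nearest to GPR126 (0.238) and ACTC1 (0.284), and ITGA2 to SLC27A6 (0.206) and LDLRAD4 (0.209). ITGB6 was nearest to COL3A1 (0.923) and IGFBP7 (0.987), at larger distances than the nearest genes given for the others. Day 1 libraries near the floor enter these distances, with 22, 0 and 0 reads of ITGB6 and 107, 4 and 2 reads of COL3A1. The FN1 neighbours LRRN4, MYL7 and KRT17 also averaged only 0.06, 0.22 and 0.39 CPM at day 1, against 48.3 CPM for FN1. How far day 1 values near the floor set the distances was not tested. The 9 points share their groups, so the measure is a description with no test.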

How the data were processed

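RNA from 9 libraries of HUES9 cells was counted per gene. Per the files the authors deposited, one table holds expected counts, which are estimated reads without any scaling. The other deposited table holds RPKM, in which the authors corrected reads for gene length and depth. Per the submitters' processing notes the build was GRCh37.p13. Aligner, counter and strandedness were not given in the sources used here. In the deposited counts 41.43% of cells held the value 0.05, read here as 0. The rest were rounded to whole numbers, and 42 symbols on repeated rows of the 27772 were summed. Each comparison was fitted on its own 6 libraries in R 4.3.3 with edgeR 4.0.16 (filterByExpr, TMM, robust quasi-likelihood F test, Benjamini-Hochberg threshold 0.05). The SE is the log2 fold change over the square root of F. It can understate the error where a group has few reads. Biological variation between replicates (edgeR's coefficient) came to 15.4% in the AA147 and RP22 fit, 12.3% in the AA147 and day 1 fit and 15.6% in the RP22 and day 1 fit. CPM in the text is scaled with TMM over all 9 libraries. RPKM served to set genes side by side within a library or group. Shares and ratios built from RPKM were then compared between groups, and the limma alternative compared RPKM itself. The procedure was also run on simulated counts that took their variation from these same fits, with few genes changed. That run cannot check the scaling or error rates in data where most genes were called. The 10 genes and all lists were chosen with earlier results of these data known. All 10 genes are named in every comparison, and up to 4 genes of each list with the largest changes that passed, plus others chosen after their values were seen. A gene that meets this rule is not reported here. Alternatives were DESeq2 1.42.0 and its size factors, library totals alone, limma 3.58.1 on log2(RPKM + 0.1), no count filter, all 9 libraries in 1 fit, a replicate block and leaving out replicates. Promoter windows are from RefSeq GRCh38.p14, which is not the build of the counts. In GENCODE exons of ITGA5, ITGAV and ITGB8 overlap loci without gene names on the opposite strand, and those of ITGB3 and ITGB6 on the same strand, so some of their reads may belong to those loci.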

Additional observations from a re-analysis of the deposited data

How the results depend on the processing

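Of 420 values of the 10 genes under the alternatives, 410 kept their direction and side of the threshold, 5 were reversed and 5 no longer passed. Between AA147 and RP22 the genes called lower numbered 1 with library totals alone and 1 with limma on log2 RPKM, against 0 with TMM. That gene was ITGB8, at -0.45 (edgeR adjusted p = 0.0049) and -0.43 (limma adjusted p = 0.025). Leaving out single libraries moved ITGB8 over -0.059 to 0.07. ITGB5 was at 0.02 with library totals alone and at 0.06 with limma (adjusted p = 0.66). ITGB6 was at 2.33 with limma on log2 RPKM, still called higher. With library totals alone the median gene was at -0.49, against -0.03 with TMM. The cause was not tested. With reads in place of RPKM, the ITGB8 share was 1.34 percentage points lower with AA147 (-1.34 in place of -0.61). Among the other α subunits, 2 were called higher with DESeq2, with all 9 libraries in 1 fit and with a replicate block. Deviations of same-numbered AA147 and RP22 libraries correlated at 0.19, 0.15 and 0.06 across genes. Libraries with different numbers gave -0.2 to 0.11. These weak correlations do not settle whether the replicate numbers pair the libraries. With the replicate block 8674 genes were called between AA147 and RP22, against 8865 without it. Against day 1 the block gave 10816 calls with AA147, against 10882 without it, and 10122 with RP22, against 10462 without it. With the block 9, 10 and 10 of the 10 genes were called higher, the same numbers as without it. The block also called 2 αv ligands lower, VTN (-1.81) and POSTN (-1.62), against 0 without it. Depth limits ITGA11, ITGB3 and ITGB6 at day 1, where 0 to 22 reads set the folds.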
